A study of Mus musculus with 8 samples.

Results

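The genes described here encode the enzymes that attach glucuronic acid or sulfate to drugs, steroids, bilirubin and bile acids, together with the enzymes that make the activated sugar and the activated sulfate they consume. Members were taken by symbol, as all symbols that begin with *Ugt* or *Sult* followed by a digit, plus *Ugdh*, *Ugp2*, *Papss1* and *Papss2*. The rule found 32 members among the 19267 genes of the count table. Of these, 24 had a mean of at least 10 counts over all libraries and were tested, and 8 were below and are given by their counts. Liver RNA was sequenced from male C57BL/6 mice of 9 weeks, in 4 groups of 2 libraries each. WT-Control and WT-EtOH mice were wild type, which in the study's methods means mice that carried Cre. *Elf4*-/- Control and *Elf4*-/- EtOH mice had floxed *Elf4* and Cre driven by the murine villin promoter, so that the deletion was directed to the intestinal epithelium and not to hepatocytes. From the age of 6 weeks, EtOH groups were pair-fed Lieber-DeCarli liquid food containing alcohol at 5% (w/v) for 21 days, and Control groups an isocaloric form with maltose dextrin. The study sequenced these livers to compare hepatic gene expression between the genotypes on alcohol, and also compared the genotypes on the control diet.

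Glucuronidation and sulfation are the main conjugation routes of the liver. UDP-glucuronosyltransferases (UGTs) sit in the endoplasmic reticulum and transfer glucuronic acid from UDP-glucuronic acid, which *Ugp2* and *Ugdh* products make from glucose phosphate in consecutive steps. Sulfotransferases (SULTs) sit in the cytosol and transfer sulfate from PAPS, which the bifunctional PAPS synthases *Papss1* and *Papss2* make from sulfate and ATP. Nuclear receptors such as PXR, CAR and PPARα and the aryl hydrocarbon receptor are known to induce many of these genes, and several of them differ between male and female mouse liver.

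Library totals ran from 6171051 to 9157362 counts, and the genes of the mitochondrial genome took 33.7% and 23.4% of the WT-Control counts, 12.5% and 10.8% of the WT-EtOH counts and 18.3% to 22.1% in the 4 *Elf4*-/- libraries. Levels are given below as CPM, which are counts relative to library size after TMM scaling, and the labels do not state that the 2 libraries of a group are separate mice, so p-values measure the spread between these libraries. The leading component of all genes (51.6% of variance) separated the diets, and the next (12.9%) set *Elf4*-/- EtOH replicate 1 apart from the other libraries. On the leading component *Elf4*-/- EtOH replicate 2 lay at 17.4, against 52.0 to 58.2 for the other EtOH libraries and -60.5 to -30.0 for the Control libraries. *Elf4* itself had 6 to 36 counts in every library, and since Cre acts in the gut its liver level does not check the genotype labels. The 5 measured hepatocyte markers summed to 31215 to 71870 CPM, and the 4 measured gut epithelium markers to 165 to 256 CPM, with at most 19 counts of *Vil1* and 14 of *Muc2* but 211 to 910 of *Fabp2* and 611 to 2149 of *Lgals4*.

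Expression of the family was uneven. Per kilobase of exon, and averaged over all libraries, the most abundant tested members were *Ugt2b5* (399 CPM per kilobase), *Ugt2b36* (302), the bile acid sulfotransferase *Sult2a8* (261), the phenol sulfotransferase *Sult1a1* (227), *Sult1d1* (128) and *Ugt2b1* (126). *Ugp2* stood at 103 and *Ugdh* at 27.1 CPM per kilobase. Between the PAPS synthases, *Papss2* (43.4 CPM per kilobase) exceeded *Papss1* (2.76). In the Ugt1a group, where only exon bases shared with no other gene were used as the length, *Ugt1a1*, which conjugates bilirubin, was at 34.9 and *Ugt1a6a* at 12 CPM per kilobase. When only bases shared with genes on the same strand were left out, these were 14.7 and 12. With the full exon length they were 6.04 and 5.95, so the gap between these 2 genes depends on the length used. The lowest tested member was *Ugt1a6b* (1.43).

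**Figure D1:**
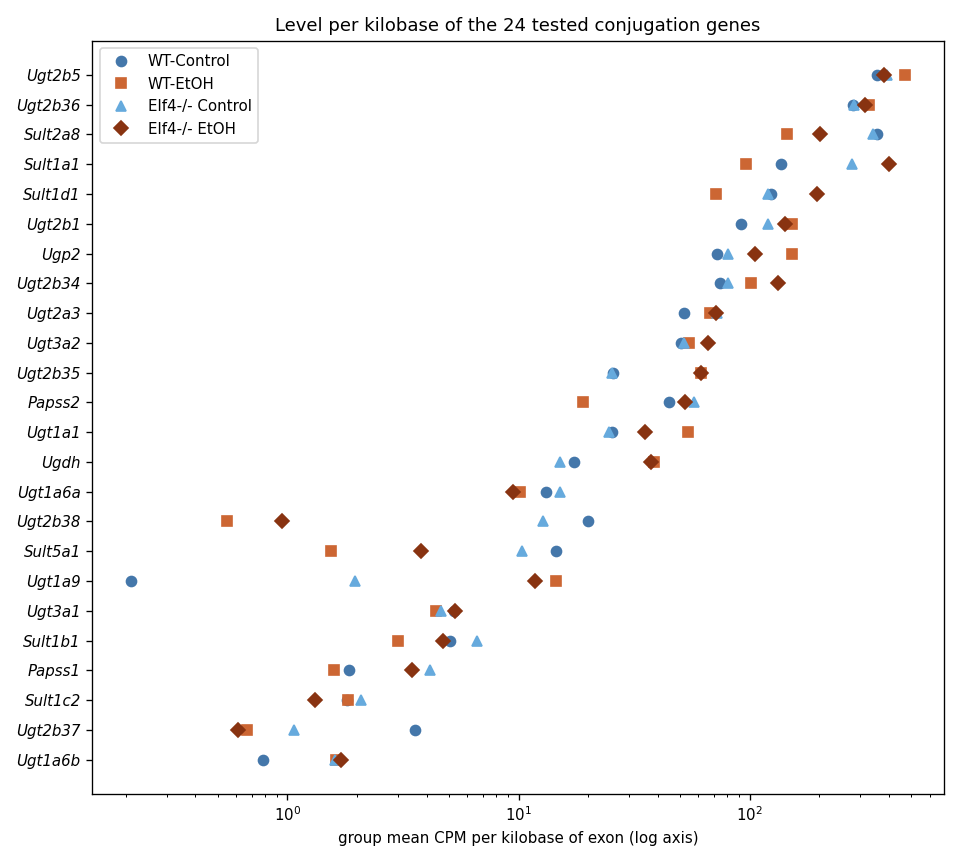
Group mean CPM per kilobase of exon (log axis) for the 24 tested members, ordered by their mean over all libraries, with 1 symbol per group (mean of 2 libraries). *Ugt2b5* leads at 399, and the groups spread widest for *Ugt1a9* (0.21 in WT-Control, 14.6 in WT-EtOH) and *Ugt2b38* (19.9 in WT-Control, 0.55 in WT-EtOH).

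Several members lie in gene clusters of near copies. The 7 Ugt1a members share 1 locus on chromosome 1 (plus strand, GRCm38) in which each gene has its own first exon and all use the same last exons, from *Ugt1a10* at 88055388 to the common end near 88218997. Only 879 of the 2190 exon bases of *Ugt1a9* (88070800 to 88218997) and 385 of the 2224 of *Ugt1a1* (88211959 to 88218997) lay on no exon of another gene, so the counts of this locus depend on how the authors' counting treated shared exons, which was not stated. The Ugt2a and Ugt2b members form a cluster on chromosome 5 between 86889767 and 87424203. There the longest transcripts of *Ugt2b38* (87409942 to 87424203, minus strand) and *Ugt2b5* (87124960 to 87140318, minus strand) were 93.9% identical, and those of *Ugt2b38* and *Ugt2b37* (87240493 to 87254804, minus strand) were 93.1% identical. Of all 150-base windows of the *Ugt2b38* transcripts, 19.2% also occurred in another gene (*Ugt2b5* above all), and none of those of *Ugt2b35*, *Ugt2b1* or *Ugt2b37* did.

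The 120 bases before the RefSeq start (GRCm38.p6) are shown for 7 of these genes. Of these, *Ugt1a9*, *Ugt1a1* and *Ugt2b35* were called higher on the alcohol diet and *Ugt2b37* and *Ugt2b38* lower. The close copies *Ugt2b5* and *Ugt2b36* were not called. The promoters of *Ugt2b1*, *Ugp2*, *Papss2* and *Sult5a1*, which were also called, are not shown. Capitals in *Ugt1a9* (chr1:88070659-88070778, plus strand) and *Ugt1a1* (chr1:88211839-88211958, plus strand) mark ATTAAC, the reverse complement of GTTAAT, a core of sites bound by HNF1. Within 250 bases before the start, the same letters occur on either strand in *Ugt1a6a*, *Ugt2a3*, *Ugt3a1*, *Sult1a1* and *Sult1d1*, which were tested and not called. They also occur in *Ugt1a10*, which had too few counts.
Ugt1a9: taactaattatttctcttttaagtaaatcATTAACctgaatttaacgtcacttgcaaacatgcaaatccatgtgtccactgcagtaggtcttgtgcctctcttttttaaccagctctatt
Ugt1a1: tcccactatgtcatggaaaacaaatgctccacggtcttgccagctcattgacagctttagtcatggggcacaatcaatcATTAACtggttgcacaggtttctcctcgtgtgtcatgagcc

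In the Ugt2b genes, capitals mark AGGTCA, a core that many nuclear receptors bind. *Ugt2b35* has none in the bases shown, as its AGGTCA begins 215 bases before the start. The windows are chr5:87000740-87000859 (plus strand) for *Ugt2b35*, chr5:87092556-87092675 (minus strand) for *Ugt2b36*, chr5:87140341-87140460 (minus) for *Ugt2b5*, chr5:87254789-87254908 (minus) for *Ugt2b37* and chr5:87424204-87424323 (minus) for *Ugt2b38*.
Ugt2b35: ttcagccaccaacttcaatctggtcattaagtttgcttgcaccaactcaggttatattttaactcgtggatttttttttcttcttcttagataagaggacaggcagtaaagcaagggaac
Ugt2b36: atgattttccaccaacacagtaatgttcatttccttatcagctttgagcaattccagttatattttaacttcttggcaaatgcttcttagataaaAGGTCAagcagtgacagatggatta
Ugt2b5: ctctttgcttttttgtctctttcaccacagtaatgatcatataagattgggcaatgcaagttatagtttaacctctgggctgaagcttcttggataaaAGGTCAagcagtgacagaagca
Ugt2b37: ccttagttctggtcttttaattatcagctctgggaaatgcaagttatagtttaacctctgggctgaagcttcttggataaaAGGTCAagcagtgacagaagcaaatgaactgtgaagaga
Ugt2b38: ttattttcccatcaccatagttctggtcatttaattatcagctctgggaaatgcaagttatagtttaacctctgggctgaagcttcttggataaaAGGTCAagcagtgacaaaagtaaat

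Over the 250 bases before the start, *Ugt2b38* was 84.85% identical to *Ugt2b37* and 81.5% to *Ugt2b5*, and 60.75% to *Ugt2b36* and 54.3% to *Ugt2b35*. *Ugt2b37* and *Ugt2b5* were 72.6% identical. RefSeq promoters were matched for 28 of the 32 members, with 33 promoters in all because 5 members have 2. On either strand of these 250 bases, AGGTCA occurred in 11 of the 33 promoters (33.3%, against 14.0% of all 32851 promoters) and GTTAAT in 8 (24.2%, against 6.43%). The xenobiotic response core GCGTG occurred in 8 (24.2%, against 28.2%) and the antioxidant response letters TGACNNNGC in 1, that of *Ugdh* (3.03%, against 10.2%). The 11 promoters with AGGTCA include those of the near copies *Ugt2b36*, *Ugt2b5*, *Ugt2b37* and *Ugt2b38*, which share the bases around it. Their matches are therefore not separate from each other. The promoters with GTTAAT include those of *Ugt1a9* and *Ugt1a10*, in which the bases after ATTAAC are nearly the same, so these matches are not separate either. All these counts are matches of letters and not measured binding.

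On the alcohol diet, WT liver shifted between conjugation genes in both directions. Of the 24 tested members, 5 rose (*Ugt1a9*, *Ugt2b35*, *Ugp2*, *Ugt1a1* and *Ugt2b1*) and 4 fell (*Ugt2b38*, *Papss2*, *Sult5a1* and *Ugt2b37*) at an adjusted p under 0.05 in edgeR's quasi-likelihood test. Across all 13993 genes tested, 21.6% were called in this comparison, 10.8% in each direction, and 22.5% of those with a mean of 10 counts or more. CPM of the 2 groups did not overlap for 19 members, 11 higher and 8 lower, where 67.3% of all genes at or above that mean did not overlap. The median log2 fold change was 0.06 over the members and 0.01 over all genes. Scaled by library totals alone, which moved the median of all genes to 0.44, 8 members rose and 3 fell. In bulk liver a lower level cannot be told apart from fewer cells of the type that expresses the gene.

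Enzymes that supply the activated sugar stood higher in WT-EtOH and a PAPS synthase stood lower. *Ugp2* (UDP-glucose pyrophosphorylase) was at 166 and 276 CPM in WT-Control and at 398 and 540 CPM in WT-EtOH. The groups did not overlap, and the log2 fold change was 1.09 ± 0.32 (SE), a 2.12-fold rise (edgeR adjusted p = 0.0380). *Ugdh*, which oxidizes UDP-glucose to UDP-glucuronic acid, had 132 and 102 CPM in WT-Control and 227 and 294 CPM in WT-EtOH. Its log2 fold change of 1.15 ± 0.37 was just outside the threshold (edgeR adjusted p = 0.0514). *Papss2* was at 164 and 169 CPM in WT-Control and 68.0 and 73.2 CPM in WT-EtOH, with little spread within either group. It fell by 1.24 ± 0.20 on the log2 scale, 2.36-fold (edgeR adjusted p = 0.00406). *Papss1*, the other PAPS synthase, had 7.46 and 3.86 CPM in WT-Control and 4.80 and 4.89 CPM in WT-EtOH, so the groups overlapped.

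Of the 4 tested Ugt1a members, 2 rose in WT and the *Ugt1a6a* and *Ugt1a6b* groups overlapped. *Ugt1a9*, a phenol-conjugating UGT, had 1 count in each WT-Control library and 96 and 132 counts in WT-EtOH. In CPM these were 0.19 and 0.18 against 12.1 and 13.5, so the groups were far apart. The ratio of summed counts, corrected for library size, was 69.5 with an exact 95% counting interval of 19.0 to 577, and the fitted log2 fold change was 5.99 ± 0.82 (edgeR adjusted p = 0.00248). *Ugt1a1* had 6.71 and 12.9 CPM in WT-Control and 19.6 and 22.1 CPM in WT-EtOH. The log2 fold change was 1.09 ± 0.34, a 2.13-fold rise (edgeR adjusted p = 0.0478).

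A gene annotated on the opposite strand bears on these Ugt1a values and was chosen after its values were seen. *Gm20528* (chromosome 1, 88055393 to 88218584, minus strand, a processed transcript) has 1062 exon bases, and all of them lie on Ugt1a exons. Its WT-Control libraries held 2130 and 2203 counts and its WT-EtOH libraries 6219 and 8965, while the summed Ugt1a members held 158 and 281 counts and 406 and 632 counts. In each of the 8 libraries *Gm20528* had between 7.84 and 19.7 counts per Ugt1a count. It rose by a log2 fold change of 1.08 ± 0.28 in WT (edgeR adjusted p = 0.0235), close to that of *Ugt1a1*. The counting thus kept *Gm20528* separate from the Ugt1a members, but no source used here gives the strand setting of HTSeq. Whether reads counted for *Gm20528* came from Ugt1a transcripts was not tested.

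In the Ugt2 cluster, whose UGTs conjugate steroids, bile acids and drugs, the changes went in both directions. *Ugt2b1* and *Ugt2b35*, called higher, are next to each other among the members. *Ugt2b37* and *Ugt2b38*, called lower, lie on either side of *Ugt2a3*. *Ugt2b35* had 76.1 and 95.5 CPM in WT-Control and 205 and 209 CPM in WT-EtOH, a log2 fold change of 1.27 ± 0.23 or 2.41-fold (edgeR adjusted p = 0.00558). *Ugt2b1* had 246 and 225 CPM in WT-Control and 445 and 338 CPM in WT-EtOH, a log2 fold change of 0.74 ± 0.23 (edgeR adjusted p = 0.0490). The drop in *Ugt2b38* was much steeper than either rise. This gene had 21.3 and 54.1 CPM in WT-Control and 1.26 and 0.82 CPM in WT-EtOH, from 114 and 294 counts to 10 and 8, and fell by 5.18 ± 0.83 on the log2 scale, 36.3-fold (edgeR adjusted p = 0.00387). *Ugt2b37* had 4.29 and 9.20 CPM in WT-Control and 1.52 and 1.02 CPM in WT-EtOH and fell by 2.41 ± 0.73 on the log2 scale (edgeR adjusted p = 0.0413). The calls of *Ugt2b1*, *Ugt2b37*, *Ugp2* and *Ugt1a1* lay near the threshold, and each was lost when any 1 WT-EtOH library was left out. The promoter of *Ugt2b5* was 72.6% identical to that of *Ugt2b37* and 81.5% to that of *Ugt2b38*. *Ugt2b5* had 754 and 562 CPM in WT-Control and 861 and 885 CPM in WT-EtOH. Its log2 fold change was 0.41 ± 0.29 (edgeR adjusted p = 0.344). *Ugt2b34*, *Ugt2b36* and *Ugt2a3* had no overlap between the groups, but with log2 fold changes of 0.24 to 0.44 they did not pass the test. In the Ugt3a pair, *Ugt3a2* had 158 and 155 CPM in WT-Control and 167 and 171 CPM in WT-EtOH, and *Ugt3a1* ran from 10.7 to 14.7 CPM.

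None of the 4 tested Sult1 members passed the test in WT. *Sult1a1* was at 248 and 162 CPM in WT-Control and 169 and 123 CPM in WT-EtOH, with overlap. *Sult1d1*, a sulfotransferase of catecholamines, was at 266 and 344 CPM in WT-Control and 205 and 147 CPM in WT-EtOH, without overlap but with a log2 fold change of -0.79 ± 0.45 (edgeR adjusted p = 0.234). *Sult2a8* was at 1257 and 1077 CPM in WT-Control and 547 and 401 CPM in WT-EtOH. Its log2 fold change was -1.30 ± 0.47 (edgeR adjusted p = 0.0757). *Sult5a1* was at 50.7 and 78.0 CPM in WT-Control and 11 and 2.65 CPM in WT-EtOH. It fell by 3.27 ± 0.67 on the log2 scale, 9.61-fold (edgeR adjusted p = 0.00946), and was the only sulfotransferase called in any of the 5 comparisons.

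The markers of other liver cell types moved with the diet in WT. Summed CPM of the 5 Kupffer cell markers was 149 and 197 for WT-Control, against 472 and 474 for WT-EtOH, the 5 sinusoidal endothelium markers stood at 44.0 and 74.4 against 206 and 252, and the 5 stellate cell markers at 25.4 and 63.6 against 223 and 293. All 5 markers of the Kupffer and of the endothelial list and 3 of the stellate list rose, and 1 of 5 hepatocyte markers fell. The summed hepatocyte markers ranged from 51481 to 71870 CPM in WT-Control and from 31215 to 37364 CPM in WT-EtOH. No marker of the bile duct, gut epithelium or neutrophil lists was called in this comparison, and 1 of 3 red blood cell markers fell. The part of cell composition and of the mitochondrial share in the WT changes was not tested.

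**Figure D2:**
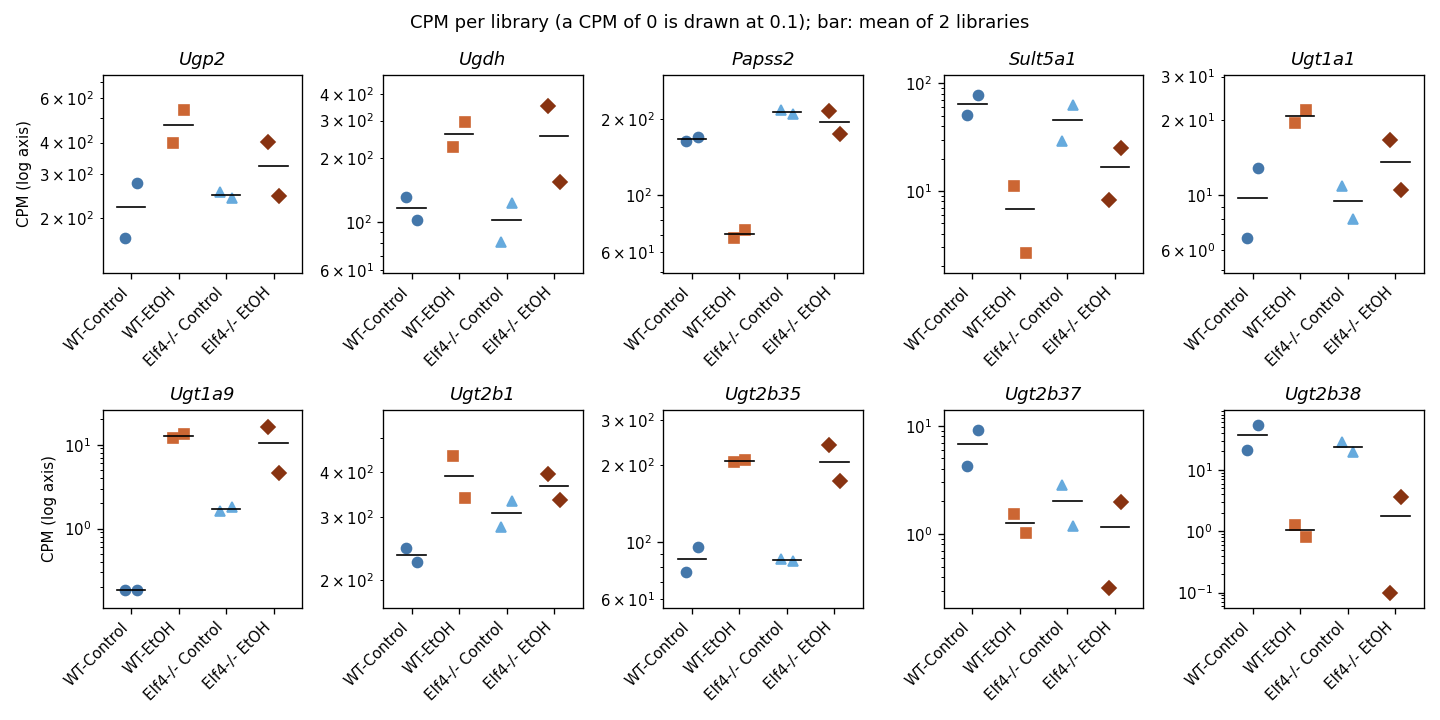
CPM per library (log axis, symbols are libraries, bars are the mean of 2) for the 9 members called in at least 1 comparison and for *Ugdh*; the 0 count of *Ugt2b38* in *Elf4*-/- EtOH replicate 1 is drawn at 0.1. *Papss2* sits at 68.0 and 73.2 in WT-EtOH and between 164 and 217 in the other 6 libraries, whereas *Ugt2b35* is at 173 to 239 in all 4 EtOH libraries and at 76.1 to 95.5 in all 4 Control libraries.

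In *Elf4*-/- mice the alcohol diet gave 3 called members, *Ugt1a9* and *Ugt2b35* higher and *Ugt2b38* lower, against 2.89% of all genes called (1.71% higher and 1.18% lower) and 3.07% of those with a mean of 10 counts or more. All 3 calls ended when only the 4 *Elf4*-/- libraries were fitted (edgeR adjusted p of 0.0991 to 0.138) and when any 1 WT-EtOH or *Elf4*-/- Control library was left out (edgeR adjusted p of 0.0529 to 0.248). CPM did not overlap for 10 members, 6 higher and 4 lower, where 52.9% of genes at or above that mean did not overlap. The median log2 fold change was 0.15 over the members and 0.01 over all genes. *Ugt2b35* had 86.0 and 84.3 CPM in *Elf4*-/- Control and 239 and 173 CPM in *Elf4*-/- EtOH. Its log2 fold change of 1.27 ± 0.23 (edgeR adjusted p = 0.0254) was the same as in WT to 2 decimals. *Ugt1a9* rose from 16 and 12 counts to 101 and 35 counts, or 1.64 and 1.79 CPM against 16.1 and 4.64 CPM, a log2 fold change of 2.58 ± 0.55 (edgeR adjusted p = 0.0412). *Ugt2b38* went from 282 and 129 counts to 0 and 27 counts, that is from 28.9 and 19.2 CPM to 0 and 3.58 CPM, and fell by 3.66 ± 0.78 on the log2 scale (edgeR adjusted p = 0.0414).

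The *Elf4*-/- EtOH libraries differed much from each other, and several values depended on which of them was kept. Of all EtOH libraries, replicate 2 lay nearest the Control libraries on the leading component. The values given next leave out replicate 1. Without it, *Ugt2b35* still rose, with a log2 fold change of 1.02 (edgeR adjusted p = 0.0469), and *Ugt2b38* fell by 2.75 (edgeR adjusted p = 0.0413), whereas the log2 fold change of *Ugt1a9* was 1.44 and no longer past the threshold (edgeR adjusted p = 0.132). *Ugdh* had 81.1 and 123 CPM in *Elf4*-/- Control and 351 and 155 CPM in *Elf4*-/- EtOH, without overlap. Its log2 fold change was 1.31 ± 0.37 with both libraries (edgeR adjusted p = 0.0864) and 0.60 without replicate 1 (edgeR adjusted p = 0.334). *Ugp2* had 255 and 241 CPM in *Elf4*-/- Control and 401 and 246 CPM in *Elf4*-/- EtOH. Its log2 fold change of 0.38 ± 0.32 (edgeR adjusted p = 0.522) became -0.01 without that library. *Sult2a8* stood at 983 and 1264 CPM in *Elf4*-/- Control, at 300 CPM in *Elf4*-/- EtOH replicate 1 and at 1024 CPM in replicate 2.

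Besides *Ugp2*, the members called in WT but not in *Elf4*-/- mice were *Papss2*, *Sult5a1*, *Ugt1a1*, *Ugt2b1* and *Ugt2b37*. In *Elf4*-/- mice *Papss2* was at 217 and 210 CPM in *Elf4*-/- Control and 215 and 175 CPM in *Elf4*-/- EtOH, with overlap and a log2 fold change of -0.13 ± 0.20 (edgeR adjusted p = 0.747). *Sult5a1* was at 29.1 and 62.7 CPM in *Elf4*-/- Control and 8.29 and 25.1 CPM in *Elf4*-/- EtOH, a log2 fold change of -1.44 ± 0.61 (edgeR adjusted p = 0.214). *Ugt1a1* was at 10.9 and 8.06 CPM against 16.7 and 10.5 CPM, and *Ugt2b1* at 281 and 333 CPM against 396 and 334 CPM. *Ugt2b37* was at 2.87 and 1.19 CPM against 0.32 and 1.99 CPM. Of members called in neither genotype, *Ugt3a2* was at 150 and 172 CPM in *Elf4*-/- Control and at 204 and 205 CPM in *Elf4*-/- EtOH, and *Ugt2b5* at 664 and 798 CPM against 533 and 881 CPM. *Gm20528* held 3761 and 3216 *Elf4*-/- Control counts against 6734 and 5003 *Elf4*-/- EtOH counts, a log2 fold change of 1.01 ± 0.28 (edgeR adjusted p = 0.0817). No gene of the 8 cell type lists was called here, although the summed stellate markers were at 77.0 and 109 CPM in *Elf4*-/- Control and at 179 and 303 CPM in *Elf4*-/- EtOH. The summed Kupffer markers were at 137 and 138 CPM against 171 and 172 CPM.

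**Figure D3:**
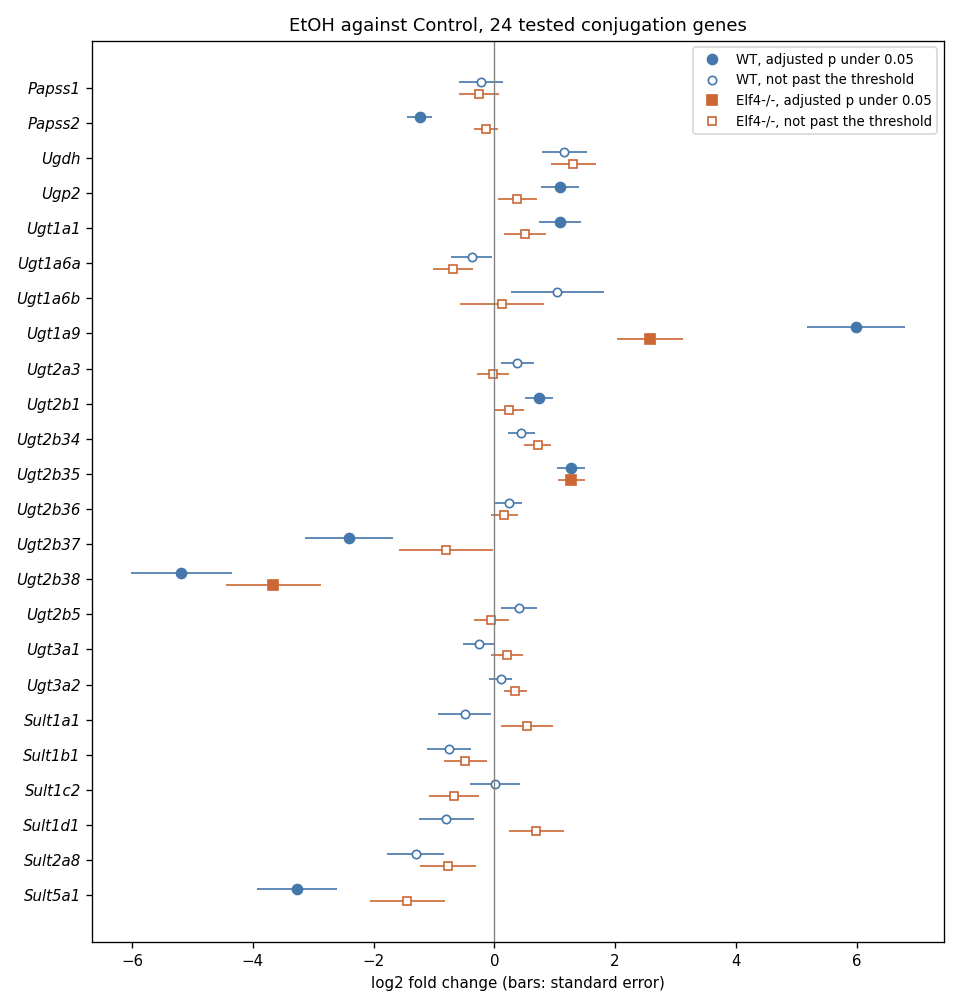
Log2 fold change of EtOH against Control for the 24 tested members in WT (circles) and *Elf4*-/- (squares), with bars of 1 standard error and filled symbols for an adjusted p under 0.05; each group has 2 libraries. *Ugt2b35* lies at 1.27 in both genotypes, *Papss2* at -1.24 in WT and -0.13 in *Elf4*-/-, and *Ugt1a9* at 5.99 and 2.58.

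Between the genotypes on alcohol, *Papss2* was the only member called, against 0.143% of all genes (20 of 13993; 0.121% higher and 0.0214% lower) and 0.152% of those with a mean of 10 counts or more. Its 68.0 and 73.2 CPM in WT-EtOH and 215 and 175 CPM in *Elf4*-/- EtOH gave a log2 fold change of 1.47 ± 0.20, 2.76-fold higher in *Elf4*-/- (edgeR adjusted p = 0.0341). It lost its call when the fit held only these 4 libraries (edgeR adjusted p = 0.229) and when any 1 of the 6 WT or *Elf4*-/- Control libraries was left out (edgeR adjusted p of 0.0585 to 0.439). The direction held in all 16 alternatives, with log2 fold changes of 1.23 to 1.60. The 5 Kupffer markers also differed here, at 472 and 474 CPM in WT-EtOH against 171 and 172 CPM in *Elf4*-/- EtOH, with 2 of 5 called lower.

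Other members with no overlap between the genotypes on alcohol numbered 8, and 41.4% of genes at or above that mean did not overlap. *Sult1a1* was at 169 and 123 CPM in WT-EtOH and 898 and 309 CPM in *Elf4*-/- EtOH, a log2 fold change of 2.05 ± 0.45 (edgeR adjusted p = 0.150). Without *Elf4*-/- EtOH replicate 1 it was 1.09 (edgeR adjusted p = 0.129), without replicate 2 it was 2.62 (edgeR adjusted p = 0.00135), and with all libraries DESeq2 called it (DESeq2 adjusted p = 6.95e-05). *Sult1d1*, at 205 and 147 CPM in WT-EtOH, was at 721 and 238 CPM in *Elf4*-/- EtOH, a log2 fold change of 1.45 ± 0.46 (edgeR adjusted p = 0.304) that was 0.44 without that library. *Papss1* was at 4.80 and 4.89 CPM in WT-EtOH and 8.61 and 12.5 CPM in *Elf4*-/- EtOH, a log2 fold change of 1.12 ± 0.34 (edgeR adjusted p = 0.294). *Ugt1a1* and *Sult1c2* were the 2 members lower in both *Elf4*-/- EtOH libraries than in both WT-EtOH libraries.

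On the control diet no member was called between the genotypes, where edgeR called 0.0143% of all genes (2 of 13993, 0.00715% in each direction) and 0.0152% of those with a mean of 10 counts or more. At an unadjusted p under 0.05, 4 of 24 members differed, 3 higher and 1 lower in *Elf4*-/-, against 7.31% of all genes, and DESeq2 also called none. CPM did not overlap for 9 members, 8 higher and 1 lower, against 38.6% of genes at or above that mean. *Papss1* was at 7.46 and 3.86 CPM in WT-Control and 12.8 and 12.4 CPM in *Elf4*-/- Control, with a log2 fold change of 1.15 ± 0.35 (edgeR adjusted p = 0.459). *Sult1a1* was at 248 and 162 CPM in WT-Control and 378 and 456 CPM in *Elf4*-/- Control, with a log2 fold change of 1.02 ± 0.44 (edgeR adjusted p = 0.673). Both genes were thus higher in each *Elf4*-/- library than in any WT library of the same diet, though no adjusted p passed. *Ugt1a9*, with 1 count in either WT-Control library and 16 and 12 counts in *Elf4*-/- Control, had a ratio of summed counts of 9.18 (exact 95% counting interval 2.32 to 79.6, counting error only) and an edgeR adjusted p of 0.519.

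**Figure D4:**
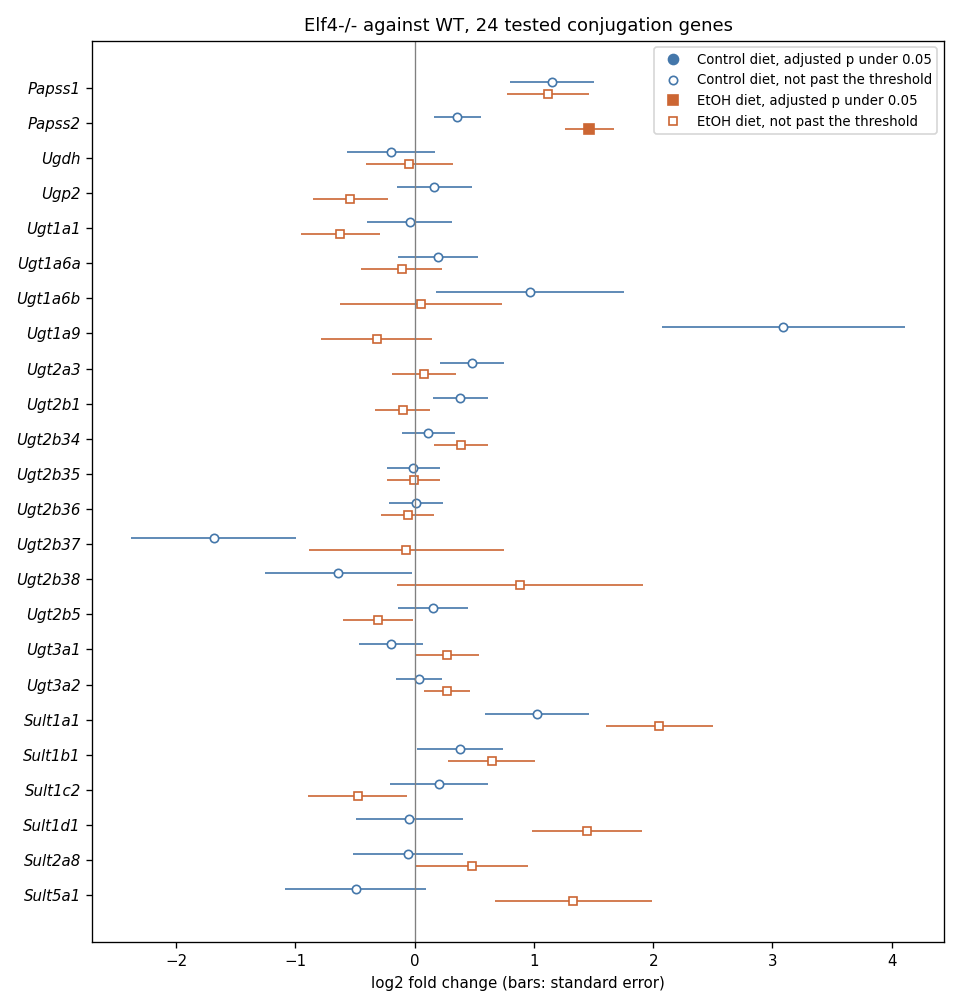
Log2 fold change of *Elf4*-/- against WT for the 24 tested members on the Control diet (circles) and on the EtOH diet (squares), with bars of 1 standard error and filled symbols for an adjusted p under 0.05; each group has 2 libraries. *Papss2* on EtOH, at 1.47, is the only filled symbol, and *Papss1* lies at 1.15 and 1.12 on the 2 diets.

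The interaction of genotype and diet asks whether the diet change differed between the genotypes. edgeR called no member and none of the 13993 genes (0%). At an unadjusted p under 0.05 the test held 3 of the 24 members and 10.1% of all genes, and DESeq2 called no member either. *Papss2* had the smallest adjusted p, with an interaction of 1.11 ± 0.28 on the log2 scale (edgeR adjusted p = 0.273). For *Ugt1a9* the interaction was -3.41 ± 1.13 (edgeR adjusted p = 0.356), and for *Sult1d1* it was 1.49 ± 0.64 (edgeR adjusted p = 0.476). So the calls that stand in WT alone are not shown to be different in *Elf4*-/- mice.

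Genes around the conjugation reactions were read from 8 lists. Of 11 genes that handle UDP-glucose and UDP-glucuronate, 2 rose and 3 fell in WT (median log2 fold change -0.18, beside 0.01 over all genes). *Akr1a1*, which reduces glucuronate, rose by a log2 fold change of 1.36 ± 0.21, and *Pgm1*, which makes the glucose phosphate that *Ugp2* uses, by 0.83 ± 0.21 (edgeR adjusted p = 0.00359 and 0.0196). Those that fell included the liver glycogen synthase *Gys2*, which uses UDP-glucose, at -1.44 ± 0.35 (edgeR adjusted p = 0.0184), and the nucleotide sugar transporter *Slc35d2* at -1.18 ± 0.22 (edgeR adjusted p = 0.00657). In *Elf4*-/- mice *Akr1a1* rose (1.02 ± 0.21) and *Gys2* fell (-1.53 ± 0.35).

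Of 9 measured genes of sulfate and PAPS handling, 3 rose and 1 fell in WT (median 0.10). *Bpnt1*, which clears the by-product of sulfation, rose by a log2 fold change of 0.83 ± 0.19 in WT and 1.15 ± 0.19 in *Elf4*-/- mice. *Suox*, the sulfite oxidase that yields sulfate, rose by 1.56 ± 0.30 and 2.18 ± 0.30. *Sumf1*, which activates sulfatases, rose (0.96 ± 0.23) and the sulfate transporter *Slc26a1* fell (-0.91 ± 0.25) in WT. Thus *Papss2* fell in WT while the genes on either side of the PAPS pool moved in both directions.

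No enzyme of other conjugation routes was called higher. Of 10 other conjugation enzymes, 4 fell in WT, among them the methyltransferase *Tpmt* (-1.60 ± 0.24) and the acetyltransferases *Nat1* (-1.96 ± 0.58) and *Nat2* (-0.87 ± 0.18), and none was called in *Elf4*-/- mice (medians -0.49 and -0.10). Of 9 transporters that carry conjugates, the efflux pump *Abcc4* rose by a log2 fold change of 5.64 ± 0.89 in WT and 5.71 ± 0.88 in *Elf4*-/- mice, from 2 to 6 counts in the Control libraries to 76 to 488 in the EtOH libraries. The bile salt export pump *Abcb11* (-1.23 ± 0.26) and the uptake carrier *Slco1a4* (-1.97 ± 0.50) fell in WT, and the uptake carrier *Slco1a1* in both genotypes (-2.11 ± 0.41 and -2.29 ± 0.42), with list medians of -0.56 and 0.07. No gene was called in either diet comparison among 13 transcription factors and receptors known to regulate these enzymes (medians 0.02 and -0.23). Of their 8 target genes outside the family, 5 rose in each genotype: the xenobiotic targets *Cyp1a1*, *Cyp3a11* and *Nqo1* and the PPARα targets *Cyp4a10* and *Cyp4a14*. The median log2 fold change of these 8 was 3.45 in WT and 3.55 in *Elf4*-/- mice, beside 0.01 over all genes in both.

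Sex-biased liver genes also moved in these male mice. Of 7 tested female-biased genes 6 rose in WT and 4 in *Elf4*-/- mice, with medians of 6.67 and 5.26, among them *Cyp2b9* (log2 fold change 7.92 ± 0.60 and 8.22 ± 0.58). Of 11 tested male-biased genes 8 fell in WT and 6 in *Elf4*-/- mice, with medians of -2.18 and -2.29, among them *Hsd3b5* (-6.93 ± 0.62 and -6.92 ± 0.65). No gene of the 8 lists was called between genotypes on either diet or in the interaction. These lists were assembled with earlier results of these data known, so their counts are descriptions.

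The 8 members below a mean of 10 counts were *Ugt1a5* (8 counts on average), *Sult1e1* (4.25), *Ugt8a* (3.12), *Sult2a7* (2.5), *Sult3a1* (2.12), *Ugt1a7c* (1.75), *Ugt1a10* (1.12) and *Sult2a2* (0.88). The nearest tested member was *Ugt1a6b*, with a mean of 10.1 counts. *Sult1e1*, the estrogen sulfotransferase, had 25 counts in *Elf4*-/- EtOH replicate 1 and at most 5 in any other library. *Sult3a1* had 0 counts in all 4 Control libraries and 3, 6, 7 and 1 counts in the EtOH libraries, which is too few for a fold. *Sult2a2* had 6 counts in *Elf4*-/- EtOH replicate 1, 1 in WT-EtOH replicate 2 and 0 elsewhere. *Ugt1a5* had 18 and 16 counts in *Elf4*-/- EtOH and 2 to 10 in the other libraries.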

How the data were processed

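In the study's methods, liver RNA was extracted with Trizol, and the authors sequenced 150-base read pairs on an Illumina HiSeq, checked them with FastQC, mapped them to mm10 with HISAT2, counted genes with HTSeq and tested with DESeq2. Versions, annotation, strand setting and treatment of shared reads are not given in the sources used here. The deposited values are raw counts per gene symbol. Here, edgeR 4.0.16 (R 4.3.3) fitted all 8 libraries with a factor of 4 groups after filterByExpr (13993 genes) and TMM scaling, and its two-sided quasi-likelihood test was adjusted by Benjamini-Hochberg over all genes (threshold 0.05). The common biological coefficient of variation was 22.7%. The fit was tested on simulated counts. Alternatives were DESeq2 1.42.0, other scalings and filters, fewer libraries and a replicate block. Positions and lengths came from GENCODE M21 (GRCm38), and promoters from RefSeq. Ugt1a levels per kilobase used exon bases shared with no other gene on either strand. Members and lists were chosen with earlier results of these data known. Values in every library are given for members called in any comparison, the cofactor enzymes and the highest member of each subfamily. Intervals cover counting error only. Of the listed genes, 10 were not analysed here. Some genes counted in the lists are not reported here by name.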

Additional observations from a re-analysis of the deposited data

How the results depend on the processing

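For the 13 called pairs of member and comparison, 208 alternative values were computed. None reversed, 147 stayed past the threshold and 61 kept the direction only; where a cause is not given it was not tested. Leaving out 1 library at a time leaves its group with a lone library, which is assumed to vary like the other groups. The count of called members then ran from 3 to 12 (9 with all) for the diet in WT, 0 to 9 (3) for the diet in *Elf4*-/-, 0 to 3 (1) for genotype on EtOH, 0 to 0 for genotype on Control and 0 to 1 (0) for the interaction. In WT, *Ugt1a9*, *Papss2* and *Ugt2b35* kept their call in all 8 such fits. Without WT-EtOH replicate 2, *Ugt2b38* (-4.88, edgeR adjusted p = 0.0501) and *Sult5a1* (-2.55, 0.0694) lost it, and without WT-EtOH replicate 1 *Sult5a1* was at -4.59. *Ugp2* (0.76 to 1.29, adjusted p of 0.0673 to 0.219) and *Ugt1a1* (0.69 to 1.17, 0.0694 to 0.231) lost it without WT-Control replicate 1 or any 1 WT-EtOH or *Elf4*-/- Control library, and *Ugt2b1* (0.52 to 0.91, 0.0826 to 0.295) and *Ugt2b37* (-2.86 to -1.76, 0.0531 to 0.225) also without WT-Control replicate 2. In *Elf4*-/-, *Ugt2b35* lost it without any 1 WT-EtOH or *Elf4*-/- Control library (0.0529 to 0.227), *Ugt2b38* without these or WT-Control replicate 2 (0.0529 to 0.207), and *Ugt1a9* without any library but *Elf4*-/- EtOH replicate 2 (0.0605 to 0.248). Without *Elf4*-/- EtOH replicate 1 the diet values of *Ugp2* (-0.011), *Sult1a1* (-0.43) and *Sult1d1* (-0.31) in *Elf4*-/- reversed, none of them called, and without replicate 2 they were 0.67, 1.09 and 1.27.

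With the replicate block 5 members were called for the diet in WT, 1 in *Elf4*-/- and 0 for genotype on EtOH; replicate numbers were shared labels only, with correlations of deviations between -0.109 and 0.0594. With only the libraries compared, 0 members were called for the diet in *Elf4*-/- (adjusted p of 0.0991 for *Ugt2b35*, 0.129 for *Ugt2b38* and 0.138 for *Ugt1a9*) and 0 for genotype on EtOH, and with library totals alone 0 for genotype on EtOH, where DESeq2 called 3. For the diet in *Elf4*-/-, DESeq2 called 4 members, all higher, and did not call *Ugt2b38* (DESeq2 adjusted p = 0.127). Library totals lost *Ugt2b37* in WT (edgeR adjusted p = 0.0702), and leaving out mitochondrial genes lost *Ugt2b1* (edgeR adjusted p = 0.0530). Genes called in the 8 pathway lists ran from 17 to 40 for the diet in WT, 2 to 29 in *Elf4*-/-, 0 to 9 for genotype on EtOH, 0 to 2 on Control and 0 to 3 for the interaction when 1 library was left out. DESeq2 gave 3 for genotype on EtOH, 2 on Control and 4 for the interaction, no filter gave 1 and 1 for the genotype comparisons, and only the libraries compared gave 1 for genotype on Control and 7 for the diet in *Elf4*-/-. Low counts limit *Ugt1a9* in WT-Control, *Ugt2b37* and *Ugt1a6b*.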
